A study of Rattus norvegicus with 96 samples.

Results

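The shell of the nucleus accumbens (NAcSh) was compared between alcohol-dependent and non-dependent rats 3 weeks into abstinence. The comparison takes in the 4 dependent and the 4 non-dependent NAcSh arrays, chosen by their labels, 8 of the 96 arrays of the study. All rats of both groups had first learned to press a lever for alcohol and had then self-administered unsweetened 10% alcohol for 4 weeks. Dependent rats were next kept in intermittent alcohol vapor for 4 weeks, whereas non-dependent rats breathed air, and intake was measured once more in both, so they differ in vapor and in the drinking that followed it. Age-matched rats of another group had never had alcohol (naive, 4 NAcSh arrays), and their values are given for reference. The study's methods name adult male Wistar rats where they describe vapor exposure for a drug experiment, whereas the array labels give no strain, sex or age. The study also tells of 4 rats per group dissected into all 8 regions, so the 4 arrays of a group are taken as 4 rats, and arrays of different regions come from the same rats. RNA of the dissected tissue was amplified from 30 or 50 ng and hybridized to Affymetrix rat arrays, and the values are log2 signals made with GCRMA, in which 1 unit is a doubling and the median probe set of a NAcSh array read 3.86 to 3.92.

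The NAcSh is the part of the ventral striatum in which dopamine from the ventral tegmental area (VTA) and glutamate from cortex, hippocampus and amygdala meet on medium spiny neurons, the GABA-releasing cells that make up most of its neurons. These cells fall into a direct pathway class that carries the dopamine receptor Drd1 and the peptide dynorphin, and an indirect pathway class that carries Drd2, the adenosine receptor Adora2a and enkephalin. The shell is known for its part in the rewarding effect of alcohol, and the glucocorticoid receptor (Nr3c1), the nuclear receptor for the stress hormone corticosterone, was the factor to which the study turned most.

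The arrays carried the markers of that tissue. Penk, the enkephalin precursor, read 13.06, 12.70, 12.76 and 13.43 in dependent rats, against 13.15, 12.51, 13.14 and 12.70 in non-dependent rats. Drd1 averaged 11.21 in dependent rats and 11.18 in non-dependent rats, and Drd2 read 5.92 to 6.68 in dependent rats, against 5.36 to 6.83 in non-dependent rats, so the groups overlapped for each of these markers. The genes that define dopamine neurons, Th and Slc6a3, lay at background, between 2.81 and 3.25 on all 12 NAcSh arrays, naive rats included. Neurod6, a marker of cortical glutamatergic neurons, read 7.93 on the array of dependent replicate 3 and 3.26 to 3.40 on the other dependent arrays, against 3.41 to 3.48 in non-dependent rats, and it reached 9.57 on the array of naive replicate 2. Bhlhe22, also high in cortex, read 10.37 on the same dependent array and 6.86 to 7.68 on the other 3, against 6.67 to 7.52 in non-dependent rats. Dependent replicate 3 and naive replicate 2 therefore carried cortical RNA markers that the other NAcSh arrays lacked or held at a lower level. The counts of lower and higher genes, over all genes and in some lists, are also given without these 2 arrays. So are the counts of the region comparisons. This alternative was added after seeing the data. Other counts, such as those of separate genes or of motifs, are given for all arrays only. In bulk tissue, fewer cells of a type and less RNA per cell cannot be told apart.

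**Figure D1:**
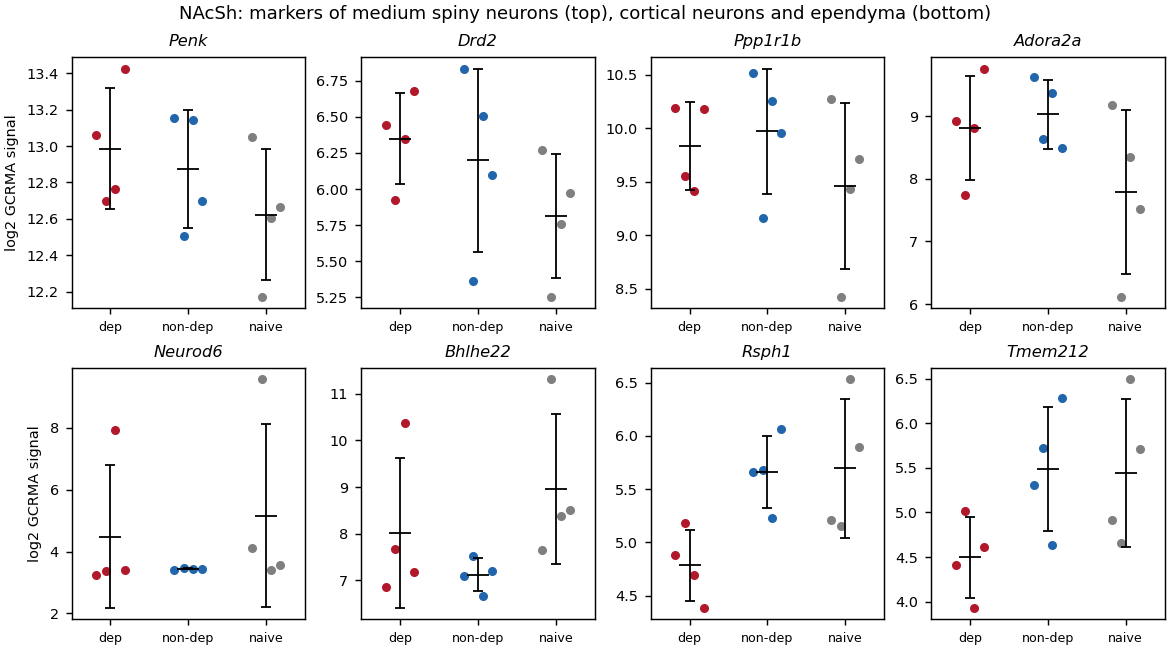
Log2 GCRMA signal of 8 marker genes on each NAcSh array, with dots for arrays and black bars for the group mean and SD (4 arrays each) of dependent (dep), non-dependent (non-dep) and naive rats. Penk, Drd2, Ppp1r1b and Adora2a overlapped between the groups, 1 dependent array (7.93) and 1 naive array (9.57) stood above the rest for Neurod6, and Rsph1 reached at most 5.18 on dependent arrays and at least 5.23 on non-dependent arrays.

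No gene passed the adjusted threshold between dependent and non-dependent rats. Of 8464 genes tested, 0 had an adjusted p under 0.05 (0% of the genes, limma with Benjamini-Hochberg adjustment over all of them), and the lowest adjusted p was 0.180. At an unadjusted p under 0.05, 693 genes (8.19%) differed, and most of these were lower in dependent rats: 503 were lower (5.94% of all genes tested) and 190 were higher (2.24%). The 4 dependent arrays lay wholly below the 4 non-dependent arrays for 340 genes (4.02%) and wholly above them for 114 (1.35%). The sizes were modest, with a median log2 difference of -0.42 among the lower genes and 0.38 among the higher ones, against a median of -0.04 over all genes, of which 58.1% had a difference below 0. The lean toward lower values depended on the scaling: after quantile normalization, 381 genes were lower and 276 higher, so that 58.0% of them were lower, against 72.6% in the values as deposited. Without the 2 arrays with cortical markers, 425 genes were lower and 209 higher. Leaving out non-dependent replicate 4 gave 289 lower and 139 higher, and leaving out non-dependent replicate 2 gave 400 lower and 121 higher. The methods' t-test, run on the same values, called 0 genes after adjustment and gave 472 lower and 186 higher at an unadjusted p under 0.05. The naive arrays were on average closer to the non-dependent than to the dependent arrays for 397 of the 503 lower genes (78.9%) and 139 of the 190 higher genes (73.2%), against 58.8% of all genes. The naive arrays were not used to choose these genes, but they share in the error estimate of the fit.

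**Figure D2:**
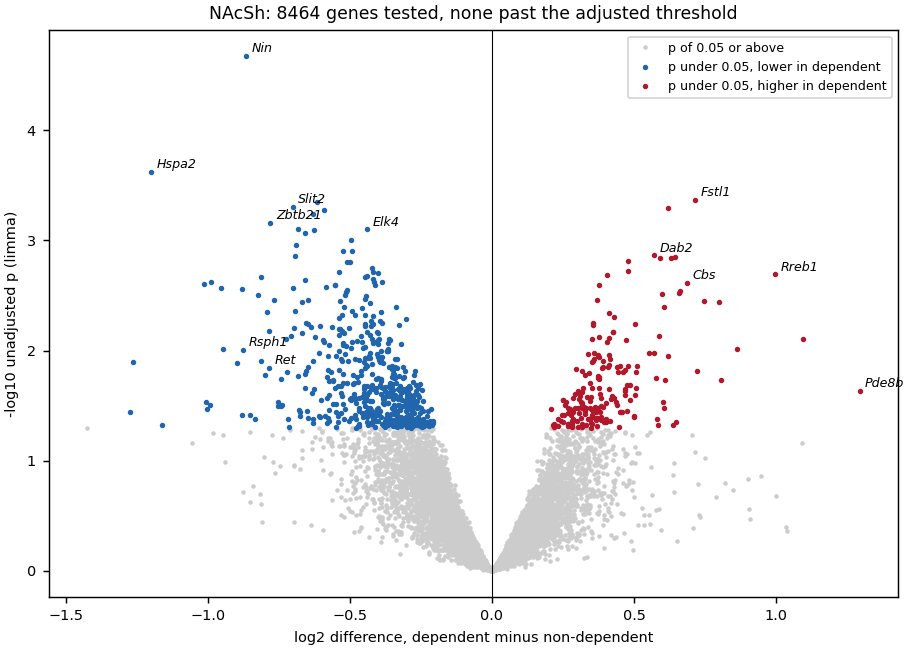
Each of the 8464 genes tested in the NAcSh, with the log2 difference (dependent minus non-dependent) on the x axis and the -log10 of the unadjusted limma p on the y axis. Genes at a p under 0.05 are blue where lower (503) and red where higher (190) in dependent rats, and Nin, at the top left, had the smallest p.

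The gene with the smallest p was Nin, which encodes ninein, a centrosomal protein that anchors microtubules. It read 4.45, 4.34, 4.33 and 4.35 in dependent rats, against 4.90, 5.30, 5.32 and 5.41 in non-dependent rats and 4.69 to 5.10 in naive rats. The groups did not overlap, and the log2 difference was -0.87 ± 0.13 (SE, adjusted p = 0.180). These are dim signals, not far above the median probe set of an array. Without non-dependent replicate 1, the lowest of its group, Nin passed the threshold (adjusted p = 0.0390) as the only gene to do so, while leaving out any other NAcSh array gave it an adjusted p between 0.110 and 0.915.

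Hspa2, a member of the HSP70 chaperone family, had the widest gap among the 15 lower genes with the smallest p. It read 8.06, 6.76, 7.40 and 7.36 in dependent rats, against 8.77, 8.48, 8.27 and 8.86 in non-dependent rats, and the naive rats lay at 8.20 to 8.80 with the non-dependent ones. The log2 difference was -1.20 ± 0.24 (adjusted p = 0.465). Tmem33, an endoplasmic reticulum membrane protein, read 5.90 to 6.34 in dependent rats, against 6.66 to 6.81 in non-dependent rats, a difference of -0.62 ± 0.13, and a second probe set of Tmem33 gave -0.40. Slit2, a secreted guidance cue that repels growing axons through Robo receptors, read 9.22, 9.21, 9.35 and 9.22 in dependent rats, against 9.53, 10.10, 9.92 and 10.26 in non-dependent rats, a difference of -0.70 ± 0.15. For Slit2 the naive rats lay with the dependent ones, at 9.06 to 9.47. A second probe set of Slit2 gave -0.46.

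The other lower genes of this set fall into a few kinds by what their products do. Isy1, which works in the spliceosome, averaged 4.63 in dependent rats and 5.26 in non-dependent rats. Gnl2, a nucleolar GTPase of ribosome assembly, averaged 8.14 in dependent rats and 8.67 in non-dependent rats, and Nxt2, a cofactor of RNA export from the nucleus, averaged 6.47 in dependent rats and 6.96 in non-dependent rats. These genes act on RNA, and none of them overlapped between the groups. Zbtb21, a zinc finger repressor, averaged 8.60 in dependent rats, 9.38 in non-dependent rats and 8.88 in naive rats, and Kmt5a, a histone methyltransferase, averaged 3.69 in dependent rats and 4.32 in non-dependent rats, near background in both. C2cd3, needed to build centrioles and cilia, read 4.99 to 5.40 in dependent rats, against 5.69 to 6.06 in non-dependent rats. Hscb, which helps assemble iron-sulfur clusters in mitochondria, Mtmr4, a lipid phosphatase of endosomes, Tmem129, a ubiquitin ligase of the endoplasmic reticulum, and the kinase Stk32c differed by -0.59, -0.69, -0.50 and -0.68 (SE between 0.12 and 0.16). All 15 lower genes were separate between the groups, with adjusted p of 0.180 to 0.465. These genes were picked for a small p on the same arrays, which favors separate groups. Among all genes tested, 4.02% were separate and lower. Mtmr4 has 3 probe sets, and of the other 2, 1 gave -0.45 ± 0.21 in the same direction and 1 gave -0.01.

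Elk4, an ETS transcription factor that binds DNA together with the serum response factor, read 5.35, 5.19, 5.03 and 5.17 in dependent rats, against 5.66, 5.55, 5.69 and 5.60 in non-dependent rats. The difference was -0.44 ± 0.10, although the other 2 probe sets of Elk4 gave -0.17 and -0.01. Because an ETS factor stood among the leading genes, the promoter windows of the leading genes were searched for the ETS site CCGGAAGT on both strands, and Elk4 was found to hold it itself. The windows run from 250 bases before to 50 bases after the start of each gene and come from RefSeq (GRCr8, the first window listed for a gene). Of the 30 leading genes, 27 had a window and 5 held the site, namely Elk4, Tmem33, Isy1 and Nxt2 among the lower ones and Srsf4 among the higher ones. The windows of Elk4 (chr13:46003939-46004238, plus strand), Tmem33 (chr14:41264537-41264836, minus strand) and Isy1 (chr4:121854512-121854811, minus strand) are shown because these lower genes share the site, which is in capitals.
Elk4: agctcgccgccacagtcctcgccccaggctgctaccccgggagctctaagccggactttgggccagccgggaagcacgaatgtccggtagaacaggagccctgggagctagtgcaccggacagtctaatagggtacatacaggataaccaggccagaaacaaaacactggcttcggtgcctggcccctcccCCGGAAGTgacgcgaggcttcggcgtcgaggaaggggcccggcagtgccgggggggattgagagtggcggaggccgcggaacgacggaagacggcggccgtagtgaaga
Tmem33: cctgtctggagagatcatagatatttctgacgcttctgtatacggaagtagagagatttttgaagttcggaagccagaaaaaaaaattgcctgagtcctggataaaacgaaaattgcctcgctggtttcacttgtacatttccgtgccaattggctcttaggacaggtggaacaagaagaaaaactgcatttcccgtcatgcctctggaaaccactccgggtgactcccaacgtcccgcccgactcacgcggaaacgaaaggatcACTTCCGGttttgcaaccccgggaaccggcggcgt
Isy1: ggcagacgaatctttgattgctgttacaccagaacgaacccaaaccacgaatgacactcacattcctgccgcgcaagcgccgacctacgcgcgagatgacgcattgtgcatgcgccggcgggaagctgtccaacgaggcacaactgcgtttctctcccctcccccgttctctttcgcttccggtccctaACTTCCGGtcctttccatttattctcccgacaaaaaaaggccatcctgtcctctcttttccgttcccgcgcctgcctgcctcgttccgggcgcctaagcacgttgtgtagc
Among all tested genes with a window, 618 of 7079 (8.73%) held this site, as did 48 of 420 genes that were lower at an unadjusted p under 0.05 (11.4%) and 14 of 160 that were higher (8.75%). A glucocorticoid response element (the letters GNACA and TGTNC with 3 bases between them, both strands) was present in 14 of the 7079 windows (0.198%) and in none of the lower or higher genes. Further motifs were searched in the same windows, with shares here for all, lower and higher genes in turn. The CCAAT box was in 37.8%, 41.4% and 43.1%, and the GC box in 64%, 59% and 66.2%. The cAMP response element was in 3.4%, 3.1% and 0%, and the X-box of RFX factors in 2.44%, 2.86% and 1.88%. The heat shock element was in 0.438%, 0% and 1.25%. A match of letters is a description of the window and says nothing of whether a factor binds there.

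The higher genes were led by Fstl1, a secreted glycoprotein of the follistatin family. It read 8.48, 9.03, 8.56 and 8.63 in dependent rats, against 7.98, 7.88, 8.10 and 7.87 in non-dependent rats, and naive rats lay between 7.74 and 8.25. The difference was 0.71 ± 0.15 (adjusted p = 0.465) with no overlap, and a second probe set gave 0.34. Rreb1, a zinc finger factor of Ras signaling, had the widest difference of the 15, 1.0 ± 0.26. It read 8.43 to 9.44 in dependent rats, against 7.79 to 8.65 in non-dependent rats, so the groups overlapped, and naive rats were lower still at 6.98 to 7.89.

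Several of the other higher genes encode parts of membrane signaling and endocytosis. Sipa1l2, which switches off the GTPase Rap at synapses, averaged 6.42 in dependent rats and 5.80 in non-dependent rats. Dab2, an adaptor of endocytosis, averaged 5.29 in dependent rats and 4.72 in non-dependent rats, Plcg1, the phospholipase C of growth factor receptors, averaged 8.14 in dependent rats and 7.66 in non-dependent rats, and Casr, the calcium-sensing receptor, averaged 5.26 in dependent rats and 4.78 in non-dependent rats. All 4 were separate between the groups. Cbs, which makes cystathionine from homocysteine, differed by 0.69 ± 0.18, the tubulin folding cofactor Tbcd by 0.66 ± 0.18, the splicing factor Srsf4 by 0.38 ± 0.10, and the polycomb protein Phc1 by 0.65 ± 0.16. Zfp536, a repressor of neuronal differentiation, read 8.57 to 9.15 in dependent rats, against 8.09 to 8.55 in non-dependent rats, but here the naive rats lay with the dependent ones at 8.71 to 9.05, and its other 2 probe sets gave 0.15 and 0.29. In all, 12 of the 15 higher genes were separate, with adjusted p of 0.465 to 0.466. They too were picked for a small p on the same arrays, and among all genes tested 1.35% were separate and higher. Naive rats were closer to the non-dependent than to the dependent mean for 13 of the 15 lower and 14 of the 15 higher genes.

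**Figure D3:**
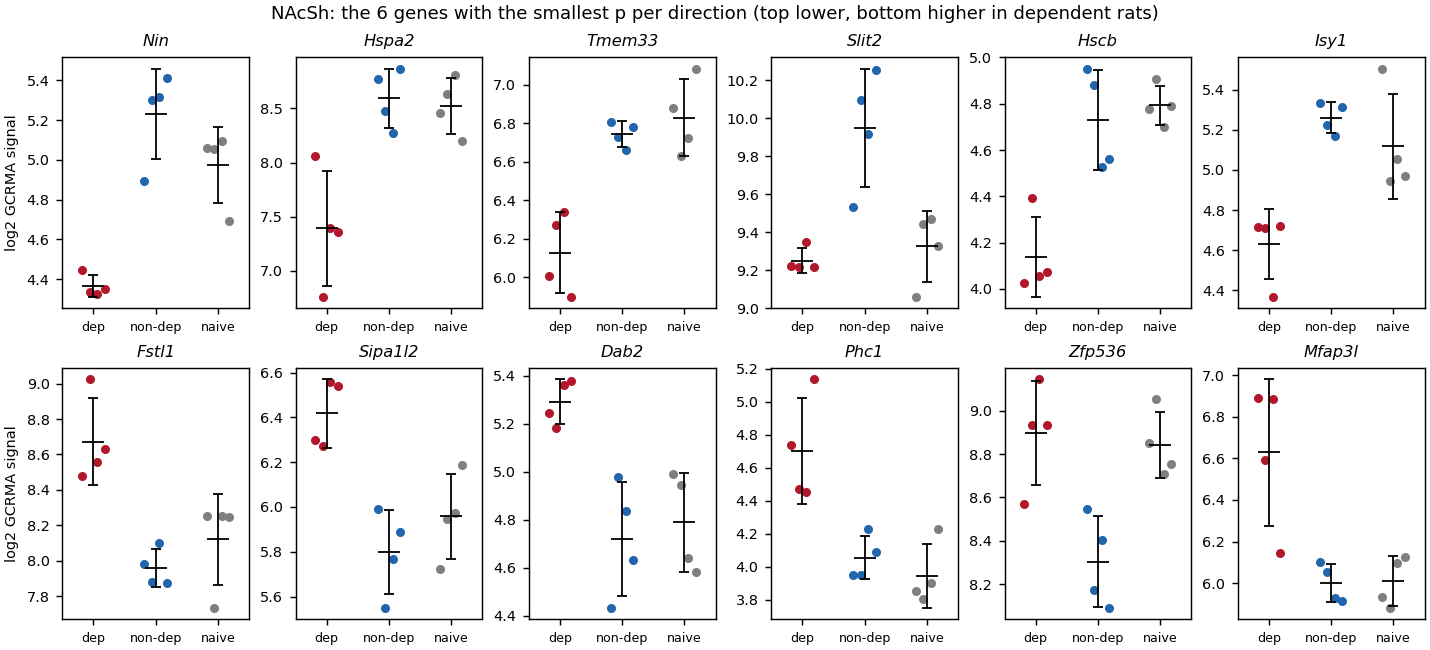
Log2 GCRMA signal on each NAcSh array of the 6 lower (top row) and 6 higher (bottom row) genes with the smallest p, with dots for arrays and black bars for the mean and SD of dependent (dep), non-dependent (non-dep) and naive rats (4 arrays each). Dependent arrays are separate from non-dependent arrays for each of the 12 genes, which were picked by p on these same arrays. The naive mean is nearer the non-dependent than the dependent mean except for Slit2 and Zfp536.

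Genes of the centrosome, of the primary cilium and of microtubules held more lower members than the background share. This list was written with earlier results of these data known, so its share is not independent of the values. Of 54 members tested, 7 were lower at an unadjusted p under 0.05 (13.0%, against 5.94% of all genes) and 1 was higher (1.85%, against 2.24%), and their median difference was -0.14, against -0.04 over all genes. Besides Nin these included Ift80, of the transport system of cilia. Ift80 read 5.44 to 5.53 in dependent rats, against 5.76 to 6.20 in non-dependent rats, a difference of -0.41 ± 0.13. Bbs5, of the complex mutated in Bardet-Biedl syndrome, read 8.79, 8.99, 8.03 and 8.92 in dependent rats, against 9.18, 9.46, 8.96 and 9.39 in non-dependent rats, so the 2 groups overlapped narrowly. Ift74, Ift20, Arl6 and Ccdc112 made up the rest, with -0.53, -0.32, -0.41 and -0.67, and the centrosome gene Cdk5rap2 was the member that was higher, by 0.41 ± 0.16. Without the 2 arrays with cortical markers, 6 were lower and 2 higher. Leaving out dependent replicate 3 left 3 lower, leaving out non-dependent replicate 2 or non-dependent replicate 4 left 4, and the methods' t-test, which borrows no spread from other genes, left 3. The lower genes among all 8464 also changed in number, from 503 to 425 without the 2 arrays with cortical markers. Without dependent replicate 3 they were 342, without non-dependent replicate 2 or 4 they were 400 or 289, and in the t-test 472.

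Motile cilia, which in brain belong to the ependymal cells that line the ventricles, showed wider gaps. Of 9 markers of choroid plexus and ependyma tested, 4 were lower at an unadjusted p under 0.05 (44.4%, against 5.94% of all genes) and none was higher, with a median difference of -0.57. Rsph1, a part of the radial spokes of motile cilia, read 4.88, 5.18, 4.69 and 4.39 in dependent rats, against 5.66, 5.68, 5.23 and 6.07 in non-dependent rats. The groups were separate, and the difference was -0.88 ± 0.29 (adjusted p = 0.549). Tmem212, also of ependyma, differed by -0.99 ± 0.41, Drc12 by -0.57 ± 0.24 and Calml4 by -0.58 ± 0.26. Ttr, the most abundant protein gene of choroid plexus, read near background with 4.56 on average in dependent rats and 4.66 in non-dependent rats, and Foxj1, the factor that switches on motile cilia, averaged 4.04 in dependent rats and 4.03 in non-dependent rats. Leaving out dependent replicate 3, non-dependent replicate 2 or non-dependent replicate 4 brought the number of lower markers down to 1 each time, leaving out dependent replicate 1 or dependent replicate 4 brought it to 2, and without the 2 arrays with cortical markers it was 3. In these fits in turn, 342, 400, 289, 582, 548 and 425 of all 8464 genes were lower, against 503 in the main fit.

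Further axonemal genes were looked at after these values had been seen, and they are described without a test. They are the genes named by symbol for parts of cilia and flagella (those that begin with Cfap, Dnah, Dnai, Dnal, Dnaaf, Drc, Odad, Rsph or Tekt and a number), 48 on the array and 25 tested, of which 2 are also among the ependyma markers. Of the 25, 21 had a difference below 0 and 4 above it, with a median of -0.33. Among all genes tested, 58.1% had a difference below 0, with a median of -0.04. Drc3, of the dynein regulatory complex, read 5.93, 6.05, 5.49 and 5.90 in dependent rats, against 6.68, 7.09, 6.07 and 7.32 in non-dependent rats. Tekt1, a filament protein of axonemal microtubules, read 4.06 to 4.45 in dependent rats, against 4.60 to 5.37 in non-dependent rats. Mns1, needed for motile cilia and sperm tails and not on either list, had the most negative difference of all genes at an unadjusted p under 0.05, -1.27 ± 0.54, with 3.21 to 4.58 in dependent rats, against 4.67 to 6.58 in non-dependent rats. Dnal1, a light chain of axonemal dynein, ran the other way, with 8.20 to 8.77 in dependent rats, against 6.90 to 8.13 in non-dependent rats. Averaged over the 25 genes, the level was 6.57 to 6.92 on the dependent arrays, against 6.83 to 7.52 on the non-dependent arrays and 6.55 to 7.55 on the naive arrays. The naive group alone thus spanned both of the others, and the part that tissue at the ventricle wall had in these differences was not tested.

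**Figure D4:**
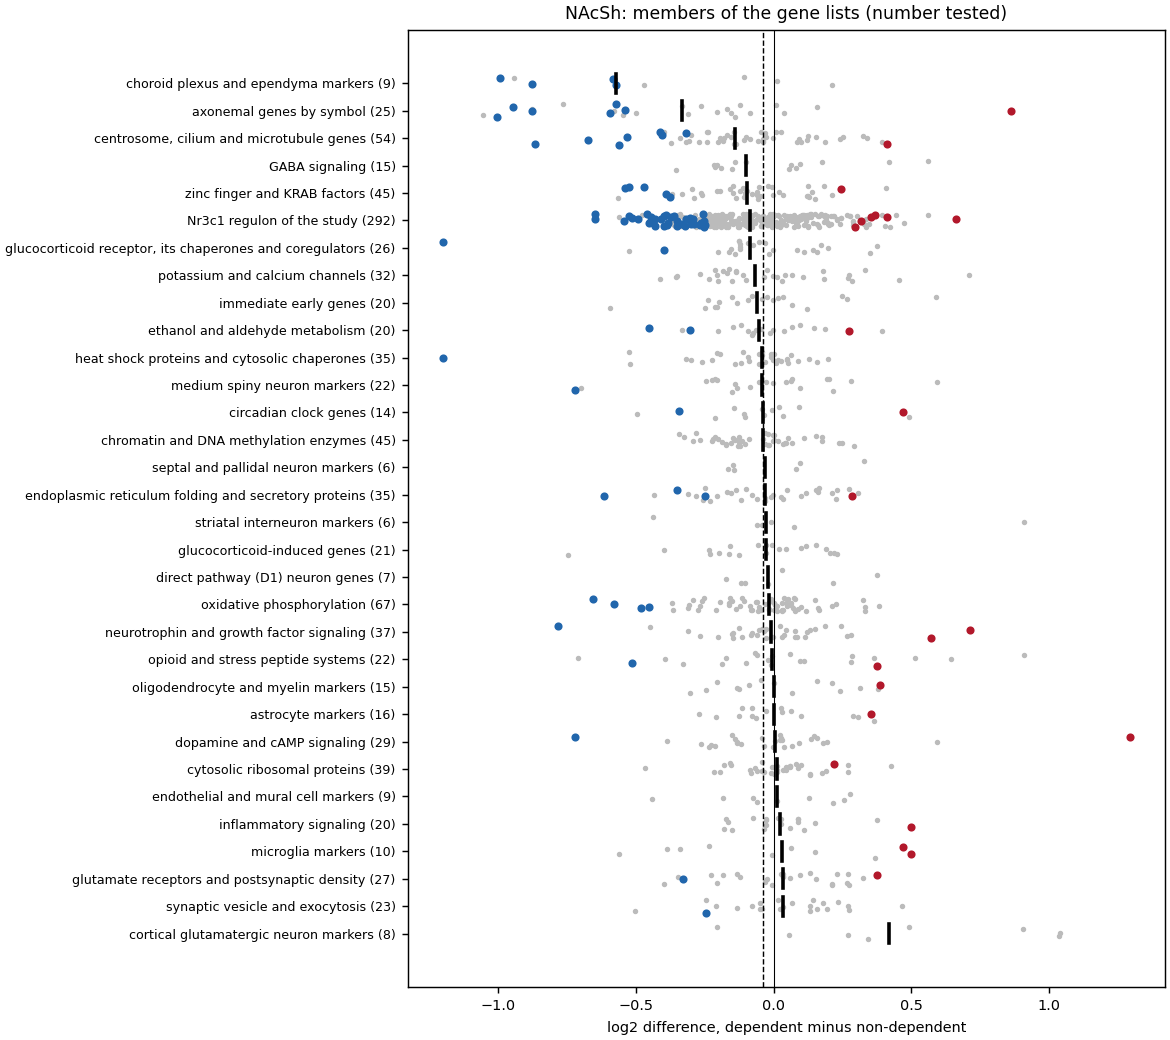
Log2 difference (dependent minus non-dependent) in the NAcSh of each tested member of the gene lists with at least 5 members tested, with blue dots lower and red dots higher at an unadjusted p under 0.05, grey dots for the rest, black bars for the list median and a dashed line for the median of all genes. The medians of the ependyma markers (-0.57) and of the axonemal genes chosen by symbol (-0.33) lie farthest to the left, and that of the cortical markers (0.42) farthest to the right.

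The receptors for glucocorticoids differed little between the groups. Nr3c1 read 10.95, 10.85, 10.70 and 11.08 in dependent rats, against 10.86, 11.16, 10.93 and 11.14 in non-dependent rats, a difference of -0.13 ± 0.11 (adjusted p = 0.778). The mineralocorticoid receptor gene Nr3c2 read 10.27 to 10.63 in dependent rats, against 10.03 to 10.47 in non-dependent rats, a difference of 0.17 ± 0.15. Both ranges overlapped. Among 21 genes known to be induced by glucocorticoids, none reached an unadjusted p under 0.05 in either direction (background 5.94% lower and 2.24% higher), and their median was -0.03. Fam107a, a stress-responsive actin-binding protein, came closest, with 11.93 to 12.07 in dependent rats, against 11.78 to 11.87 in non-dependent rats and a difference of 0.19 ± 0.09. The chaperones and coregulators of the receptor gave 2 lower and 0 higher members of 26 (7.69% lower), Hspa2 and Cdh2. Cdh2 encodes the cell adhesion molecule N-cadherin, which is not a chaperone. Hspa4, a cochaperone of the HSP70 family, averaged 8.50 in dependent rats and 9.02 in non-dependent rats, a difference of -0.52 ± 0.26 that missed even the unadjusted threshold.

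The targets that the study assigned to Nr3c1 (its regulon) were inferred from the 96 arrays of all regions together, not from the NAcSh alone. These include the arrays compared here, so the direction of the targets is not independent evidence. For factors with many targets the study scored only the most likely ones, so the targets used here may not be the set it scored. Of 344 targets, 292 were tested, and 35 were lower at an unadjusted p under 0.05 (12%, against 5.94% of all genes) while 6 were higher (2.05%, against 2.24%). Their median difference was -0.09, against -0.04 over all genes. Of the 292 targets, 25 were separate between the groups and lower, and 4 were separate and higher. Over all genes these shares were 4.02% and 1.35%. Lap3, a leucine aminopeptidase, read 9.66, 9.58, 9.78 and 9.69 in dependent rats, against 9.94, 10.30, 10.17 and 10.02 in non-dependent rats, a difference of -0.43 ± 0.12. Tmem231, a protein of the ciliary transition zone, read 6.98 to 7.48 in dependent rats, against 7.60 to 7.96 in non-dependent rats. Rdh14, a retinol dehydrogenase, and Fbxw11, a subunit of a ubiquitin ligase, averaged 10.02 and 8.53 in dependent rats, against 10.51 and 9.18 in non-dependent rats. Lxn, the carboxypeptidase inhibitor latexin, was the target with the smallest p and was higher, by 0.66 ± 0.18. The 35 lower targets became 23 after quantile normalization and 21 without the 2 arrays with cortical markers. Their number was 19 with dependent replicate 3 left out, 22 with non-dependent replicate 2 left out and 16 with non-dependent replicate 4 left out. In these fits in turn, 381, 425, 342, 400 and 289 of all 8464 genes were lower, against 503 in the main fit.

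The markers of medium spiny neurons lay at similar levels in both groups. Of 22 tested, 1 was lower at an unadjusted p under 0.05 (4.55%, against 5.94% of all genes) and none was higher, with a median of -0.04. That member was Rgs9, which shortens dopamine and opioid receptor signals in striatum. It read 3.67, 3.78, 3.95 and 4.29 in dependent rats, against 5.70, 3.71, 4.83 and 4.34 in non-dependent rats, so the gap of -0.72 ± 0.32 rests on the spread of a dim signal among non-dependent rats. Meis2, a homeobox factor of striatal neurons, read 12.59 to 12.82 in dependent rats, against 12.90 to 13.01 in non-dependent rats, a separate but small difference of -0.25 ± 0.12. None of the 7 direct pathway genes or the 4 indirect pathway genes tested reached an unadjusted p under 0.05.

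Within dopamine and cAMP signaling, 1 of 29 genes was lower (Rgs9) and 1 was higher (3.45% each, against 5.94% lower and 2.24% higher of all genes). The higher one was Pde8b, a phosphodiesterase that breaks down cAMP, with 7.10, 6.70, 7.73 and 7.30 in dependent rats, against 4.57, 7.33, 5.57 and 6.18 in non-dependent rats. The non-dependent rats were widely spread and overlapped the dependent ones, and the difference was 1.29 ± 0.50 (adjusted p = 0.594), with 0.74 ± 0.20 at a second probe set.

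Among opioid and stress peptide systems, 1 of 22 genes tested was lower and 1 was higher (4.55% each, against 5.94% and 2.24% of all genes), with a median of -0.01. The lower one was Oprl1, the nociceptin receptor, with 5.12, 5.43, 4.71 and 5.02 in dependent rats, against 5.24, 5.87, 5.73 and 5.50 in non-dependent rats and 5.63 to 5.91 in naive rats. Its difference was -0.51 ± 0.17 (adjusted p = 0.537), and dependent and non-dependent rats overlapped. The higher one was Adcyap1r1, the receptor for the peptide PACAP, with 11.31, 11.31, 11.22 and 11.48 in dependent rats, against 10.90, 10.91, 11.07 and 10.93 in non-dependent rats. These values were separate, and the difference was 0.38 ± 0.14 (adjusted p = 0.594). Crh, the corticotropin-releasing factor, read 2.89 to 3.78 in dependent rats, against 3.78 to 4.44 in non-dependent rats, at or near background. The dynorphin precursor Pdyn averaged 10.08 in dependent rats and 10.10 in non-dependent rats, and the dynorphin receptor Oprk1 averaged 8.38 in dependent rats and 8.71 in non-dependent rats, each with overlapping ranges. Oprm1 and Oprd1, the mu and delta opioid receptors, lay below the level needed to be tested.

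Synaptic lists gave few differences. Of 27 glutamate receptor and postsynaptic density genes, 1 was lower and 1 higher (3.7% each, against 5.94% and 2.24% of all genes). Shank3, a scaffold of excitatory synapses, read 8.48 to 8.90 in dependent rats, against 8.25 to 8.50 in non-dependent rats (0.37 ± 0.13), and Dlg2, a neighboring scaffold, averaged 6.11 in dependent rats and 6.44 in non-dependent rats. Syt4, a synaptotagmin, was the 1 lower gene of 23 of synaptic vesicles (4.35%), with 12.03 to 12.23 in dependent rats, against 12.35 to 12.41 in non-dependent rats. None of 15 GABA genes, 32 potassium and calcium channel genes, 20 immediate early genes, 45 chromatin genes and 6 interneuron markers reached an unadjusted p under 0.05.

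Metabolic and folding genes were mixed. Oxidative phosphorylation gave 4 lower and 0 higher of 67 (5.97% lower, against 5.94% of all genes), led by the complex I subunits Ndufb7 and Ndufb6 (-0.65 ± 0.23 and -0.45 ± 0.17) and the cytochrome oxidase subunit Cox5b (-0.58 ± 0.25). Ndufb7 read 8.78 to 8.91 in dependent rats, against 8.83 to 10.10 in non-dependent rats, so the groups overlapped at their edge. Folding and secretory genes of the endoplasmic reticulum gave 3 lower (8.57%, against 5.94%) and 1 higher (2.86%, against 2.24%) of 35. Besides Tmem33, the disulfide isomerase Pdia6 averaged 11.27 in dependent rats and 11.62 in non-dependent rats, and the major chaperone Hspa5 averaged 11.95 in dependent rats and 12.20 in non-dependent rats, while Creld2 was higher by 0.29 ± 0.13. In ethanol and aldehyde metabolism 2 of 20 genes were lower (10%, against 5.94%), the peroxidase Gpx4 and the aldehyde dehydrogenase Aldh6a1 (-0.45 ± 0.18 and -0.30 ± 0.14), and 1 was higher (5%, against 2.24%), Aldh7a1 (0.27 ± 0.12). Of 14 clock genes, 1 was lower and 1 higher (7.14% each, against 5.94% and 2.24%). Clock was lower at 8.81 to 9.16 in dependent rats, against 9.19 to 9.58 in non-dependent rats, but its second probe set gave 0.15 in the other direction. Per3 was higher by 0.47 ± 0.18, with both groups touching between 5.61 and 5.63.

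Zinc finger factors, many of them KRAB repressors, gave 5 lower and 1 higher of 45 (11.1% lower, against 5.94% of all genes), but none of the 5 lower ones was separate between the groups. This list, too, was written with earlier results of these data known, so its share is not independent of the values. Zfp322a averaged 6.66 in dependent rats and 7.19 in non-dependent rats, and Znf354b and Zfp280d differed by -0.53 ± 0.20 and -0.38 ± 0.15. Without the 2 arrays with cortical markers, 3 were lower and 2 higher, leaving out non-dependent replicate 2 or non-dependent replicate 4 left 2 lower, and leaving out dependent replicate 3 or dependent replicate 4 left 3. In these fits in turn, 425, 400, 289, 342 and 548 of all 8464 genes were lower, against 503 in the main fit. Among 37 genes of growth factor signaling, Fstl1 and Dab2 were higher (5.41%, against 2.24%) and Ret was lower (2.7%, against 5.94%). Ret, the receptor tyrosine kinase for the glial cell line-derived neurotrophic factor, read 4.39 to 5.52 in dependent rats, against 5.08 to 6.37 in non-dependent rats, with a difference of -0.78 ± 0.28.

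The glial lists leaned the other way in single genes only. Of 10 microglia markers tested, 2 were higher (20%, against 2.24% of all genes), the lysosomal protein Laptm5 (0.47 ± 0.19) and the complement component C1qa (0.50 ± 0.22). A second probe set of Laptm5 gave -0.09, and Ptprc, the leukocyte antigen CD45, had a difference of -0.56 ± 0.30 that missed the unadjusted threshold. C1qa read 6.96 to 7.35 in dependent rats, against 5.97 to 7.10 in non-dependent rats, and the 2 lowest non-dependent arrays made the gap. Among 16 astrocyte markers the receptor Gpr37l1 was higher (6.25%), with 5.15 to 5.45 in dependent rats, against 4.78 to 5.03 in non-dependent rats, and among 15 myelin genes Fa2h was higher (6.67%), with 4.25 to 4.34 in dependent rats, against 3.75 to 4.05 in non-dependent rats. The medians of these 3 lists were 0.03, 0.00 and 0.00. Irf3, of interferon signaling, was the 1 higher gene of 20 of inflammatory signaling (5%), with a difference of 0.50 ± 0.22.

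Whether the NAcSh differed from its neighbor, the accumbens core (NAcC), was tested as the difference between the dependent minus non-dependent changes of both regions. The fit treated arrays of the 2 regions as independent, although they come from the same rats, because the labels do not say which array is of which rat. No gene passed the adjusted threshold (0% of 8457 genes in limma, lowest adjusted p = 1.0), and 193 genes had an unadjusted p under 0.05 (2.28%). That share is below what a threshold of 0.05 passes by chance, so the genes that follow are described and not called. Without the 2 arrays with cortical markers, 0 genes passed and 214 had an unadjusted p under 0.05. The gene with the smallest p was Casr. It averaged 5.26 in dependent rats and 4.78 in non-dependent rats in the NAcSh, and 4.95 in dependent rats and 5.09 in non-dependent rats in the NAcC, so that the changes differed by 0.62 ± 0.15. Oprl1 had a change of -0.51 in the NAcSh and 0.39 in the NAcC. In the NAcC it read 4.56, 4.59, 4.12 and 4.50 in dependent rats, against 3.89, 3.81, 4.11 and 4.38 in non-dependent rats, and the changes differed by -0.90 ± 0.23. Fstl1 had a change of 0.71 in the NAcSh and -0.18 in the NAcC, and the changes differed by 0.89 ± 0.25. Mrpl43, a mitochondrial ribosomal protein, Znf768, a zinc finger factor, and Pex19, which imports peroxisomal membrane proteins, had differences of -0.67 ± 0.18, -0.92 ± 0.27 and 0.60 ± 0.18. Of the 30 leading NAcSh genes, 29 were tested in the NAcC, and 11 of 15 lower and 9 of 14 higher ones had the same sign there. Same signs were not counted over all genes, so these counts have no background share. The NAcC itself had 320 lower and 200 higher genes at an unadjusted p under 0.05 (limma). Nxt2 differed by -0.49 in both regions.

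The VTA, where the dopamine neurons that project to the NAcSh lie, gave 1 gene past the threshold in the same test (0.0114% of 8762 genes) and 1514 at an unadjusted p under 0.05 (17.3%). That gene was Syt16, an atypical synaptotagmin. In the NAcSh it read 11.31, 11.21, 11.53 and 11.67 in dependent rats, against 11.52, 11.75, 11.60 and 11.62 in non-dependent rats, a change of -0.19 ± 0.13. In the VTA it read 10.56, 10.45, 10.06 and 10.04 in dependent rats, against 9.39, 8.99, 9.02 and 9.11 in non-dependent rats, a change of 1.15. The changes differed by -1.34 ± 0.21 (adjusted p = 0.0253), and the gap lay in the VTA. Ints2, of the Integrator complex, and Papolg, a poly(A) polymerase, came next with -1.79 ± 0.33 and -1.14 ± 0.21 (adjusted p = 0.0684 each). Ints2 was separate between the groups in the NAcSh too, with 6.46 to 7.24 in dependent rats, against 7.30 to 7.72 in non-dependent rats. Acot7, a thioesterase of long-chain acyl-CoA, had the smallest p among the genes whose NAcSh change was the higher one, with 1.24 ± 0.27. Among the non-dependent VTA arrays, replicate 2 stands apart from all others of its region, and without it 17 genes passed the threshold. No gene passed when NAcSh arrays dependent replicate 1, dependent replicate 2, non-dependent replicate 2, non-dependent replicate 3 or non-dependent replicate 4 were left out one at a time, nor without the 2 arrays with cortical markers (lowest adjusted p = 0.0738 to 0.101). The call on Syt16 was also lost after quantile normalization (lowest adjusted p of any gene 0.0639) and with the replicate number as a block (lowest adjusted p of any gene 0.0881). Of the leading NAcSh genes tested in the VTA, 5 of 14 lower and 7 of 14 higher ones had the same sign there. These counts include non-dependent VTA replicate 2, on which several of the signs hang. That array read 2.53 for Elk4, against 5.05 to 5.52 on the other non-dependent VTA arrays, and 5.75 for Sipa1l2, against 7.72 to 8.36. The signs were not counted without it, nor over all genes.

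**Figure D5:**
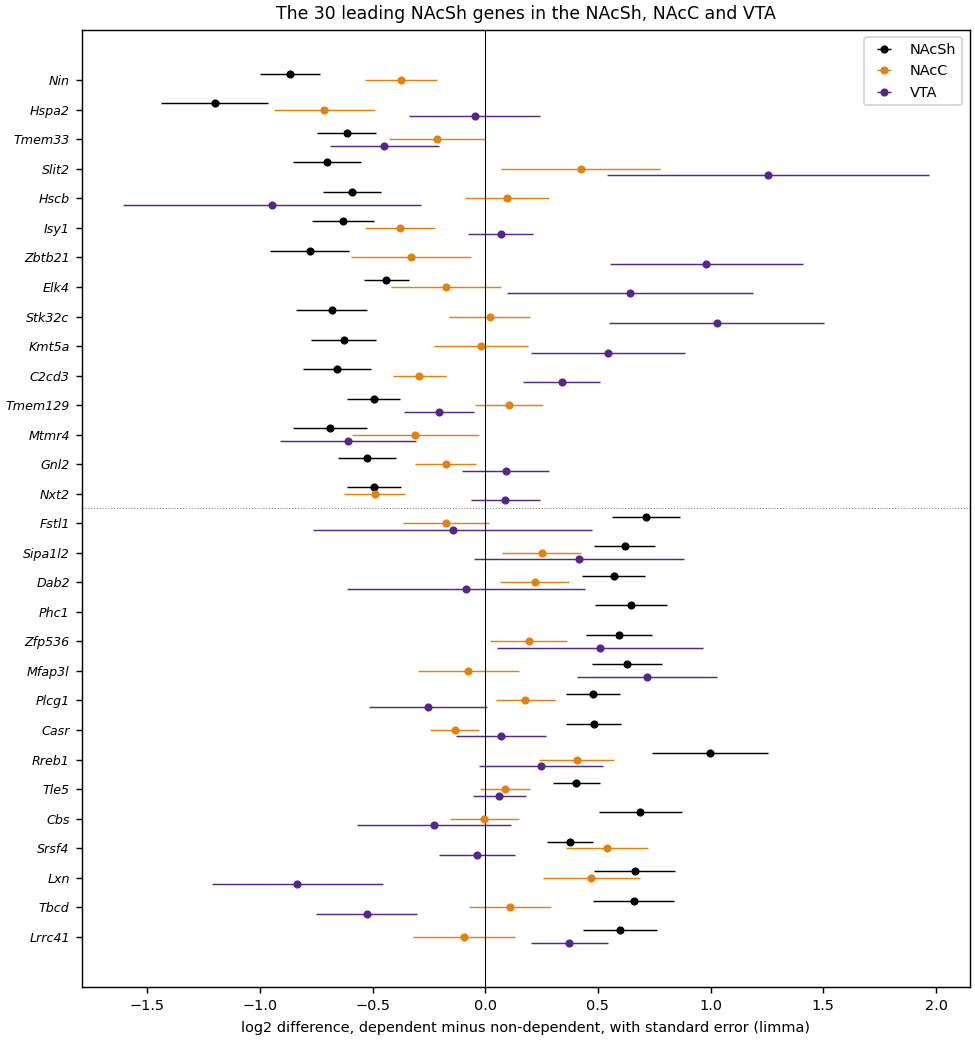
Log2 difference (dependent minus non-dependent) with its standard error of the 15 lower (above the dotted line) and 15 higher leading genes of the NAcSh in the NAcSh, NAcC and VTA, with no point where a gene was under the filter of that region. Slit2 was lower in the NAcSh (-0.70) and above 0 in the NAcC (0.42) and in the VTA (1.25, where 1 non-dependent array read 5.44), whereas Nxt2 was at -0.49 in NAcSh and NAcC alike.

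The highest correlation of each NAcSh array with another array of the series was 0.989 to 0.996. It was lowest for the 2 arrays with cortical markers, naive replicate 2 (0.989) and dependent replicate 3 (0.992). The mean of 18 hybridization controls was 9.65 to 10.17 on dependent arrays, against 9.58 to 9.88 on non-dependent arrays. On naive arrays it was 9.74 to 9.98 apart from replicate 3, which read 8.34 and is among the 12 arrays of the fit. Of 7 array quality values compared by an exact permutation test with 4 arrays a side (smallest two-sided p possible 0.0286), the widest gap was in the signal of the 3 prime Actb control, which averaged 10.89 in dependent rats and 11.43 in non-dependent rats (exact p = 0.0571, 0.200 after Benjamini-Hochberg adjustment). Its part in the results was not tested.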

How the data were processed

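RNA from 8 brain regions of dependent, non-dependent and naive rats was amplified and hybridized to Affymetrix rat arrays, 4 per region and group. The authors deposited log2 values made with GCRMA, for which their processing notes name GCRMA 2.36.0 and R 3.03, and these were used without further scaling. GCRMA sets dim probe sets near a common floor, so differences at low levels are compressed. Of 31099 probe sets, 20832 name 1 gene, 436 several and 9831 none in the platform annotation. A gene was represented by its probe set with the highest mean over 96 arrays (14218 genes), and 8464 genes with a mean above 4 over the 12 NAcSh arrays were tested with limma 3.58.1 in R 4.3.3. All 12 arrays entered the fit, and p-values were adjusted by Benjamini-Hochberg over all genes. As replicates are labelled samples, p-values measure the spread between these samples. Changes in NAcSh and NAcC or VTA were compared as interactions over 24 arrays, which were treated as independent although the regions come from the same rats. The fits were tested on simulated data. Genes named were the 15 lower and 15 higher with the smallest p, up to 3 per list (33 lists), 5 of the regulon, 3 interactions per direction, both corticosteroid receptors and marker genes. Motile cilium genes beyond the ependyma list were chosen after their values were seen. The comparison, members and lists were chosen with earlier results of these data known. Alternatives covered the filter, scaling, probe set choice, arrays in the fit, array weights, the prior, the methods' t-test, a replicate block and leaving out each array. The series has no array dates in the sources used here, so batches were not tested.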

Additional observations from a re-analysis of the deposited data

Results flagged for a closer look

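Among the 300 groups of 4 NAcSh arrays formed by 100 genes, 19 held an array far from the other 3 of its group, and chance gives about 1 in 20 groups. The cortical marker Neurod6 gave 7.93 in dependent replicate 3 and 9.57 in naive replicate 2. Dependent replicate 3 also stood apart for Slit2 (9.35), Isy1 (4.37), Ift80 (5.44) and Rdh14 (9.54), dependent replicate 2 for Hscb (4.39) and dependent replicate 4 for Laptm5 (5.95). In non-dependent rats, replicate 1 stood apart for Casr (4.91) and Rdh14 (10.40), replicate 2 for Cry1 (7.56) and Irf3 (6.93), and replicate 3 for Adcyap1r1 (11.08). In naive rats, replicate 1 stood apart for Rasgrp2 (7.41) and Dnal1 (7.26), replicate 2 for Fstl1 (7.74) and Znf768 (5.26), replicate 3 for Pex19 (7.88) and replicate 4 for Nin (4.69).

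For Syt16 the change in the NAcSh and the change in the VTA differed past the threshold in limma, by -1.34 (adjusted p = 0.0253), and the call was lost in several fits that left out 1 array, without the 2 arrays with cortical markers, after quantile normalization and with the replicate block.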

How the results depend on the processing

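No gene passed the threshold between dependent and non-dependent NAcSh in any alternative except that 1 (Nin) did without non-dependent replicate 1. Leaving out each NAcSh array in turn gave 0 to 1 called genes, 289 to 582 lower and 121 to 236 higher at an unadjusted p under 0.05, and without a filter on low values 414 were higher and 683 lower (62.3% lower, as a filter leaves out dim genes). Median scaling gave 585 lower and 142 higher (80.5% lower). No named gene turned its direction, but genes with a small p could hardly do so when 1 array was left out, and none was past the threshold to begin with. Of 813 list medians, 9 moved by more than the spread between arrays, and the cause was not tested. For the difference from the NAcC, 408 genes had an unadjusted p under 0.05 without the filter, 99 with a mean above 6, 377 with array weights and 136 to 245 with each array left out. For the difference from the VTA, 19 genes passed with a mean above 6, 349 with array weights, 17 without the VTA array that stands apart, 0 after quantile normalization, 0 without the 2 arrays with cortical markers and 0 to 2 with each array left out. Same-numbered arrays of the 2 groups correlated at -0.079 to 0.139 (over 0.1 in 3 of 4 pairs) and arrays of different numbers at -0.152 to 0.108, a hint of pairing in 3 of the numbers. The labels tie the numbers to no shared rat or batch, and for that reason the arrays were treated as unpaired. These correlations do not settle whether the numbers pair arrays. A fit with the replicate block called 0 genes, with 428 lower and 168 higher, and called 0 genes for the difference from the VTA. The number of arrays and the floor of GCRMA limit the precision.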

Other observations

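Probe sets that name no single gene split differently from those that do. When all 14880 probe sets with a mean above 4 in the NAcSh were fitted together, 0 were called (lowest adjusted p = 0.198). Of 4145 that name no gene or several, 201 were lower and 268 higher in dependent rats at an unadjusted p under 0.05 (42.9% lower, median difference over all of them -0.01). Of 10735 that name 1 gene, 639 were lower and 226 higher (73.9% lower).

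Among the genes lower or higher at an unadjusted p under 0.05, 147 had 197 further probe sets above the filter. Of these 197, 136 had the sign of the probe set used and 35 had an unadjusted p under 0.05.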
